A study of Danio rerio
Oryzias latipes and Oryzias latipes and Danio rerio with 7 samples.

Results

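Control embryos of zebrafish and of medaka, a pair of laboratory fish, were compared gene by gene in 4 of the 7 RNA sequencing libraries of the series. The zebrafish were of the AB strain and were kept at 28 °C in E3, the usual salt solution for their embryos (n = 2 libraries). The medaka were of the Cab strain and were kept at 28 °C in ERM, a medaka rearing medium (n = 2 libraries). The other 3 libraries are chimeras, medaka embryos that received zebrafish cells, and are used here only for a short comparison. The 4 control libraries were made from whole embryos without a transplant, and the age is given only as embryo, so nothing in the labels sets the stages of the species side by side. No label says that the libraries of a species came from separate clutches, so p-values measure the spread between these libraries, which may be technical. Each species was read on its own genome. Species, genome, annotation and rearing medium therefore cannot be told apart, and in whole embryos fewer cells of a type and less RNA per cell cannot be told apart either.

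Genes were paired where the same symbol belonged to exactly 1 gene ID in each genome. Of 32264 zebrafish IDs and 20459 medaka IDs, 11884 were joined in this way. A mean of at least 1 FPKM in either species was required, which left 10296 genes. FPKM counts sequenced fragments relative to transcript length and library size, so it depends on the gene model of each genome. The loci of the tested genes had a median span of 18899 bases in zebrafish and 7724 in medaka. To see how far the length of the models bears on a value, the comparison was also made on the fragments implied by the confidence limits, with no division by length. These numbers are too low where the limits are wider than counting error, as with several isoforms, so neither scale is taken as the true one. On fragments 130 of the 149 genes named by rule kept their call and direction, 10 lost the call and 9 had the opposite sign.

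Both embryos build skeletal muscle in a sequence. Cells of the tailbud and paraxial mesoderm, which express T-box and bHLH factors, form somites, commit through myogenic regulators and then fill with sarcomeres, the repeated units of myosin, actin and troponin that contract. Neurons follow a like order, from progenitors with proneural factors to cells with synaptic and axonal proteins. Teleosts also carry many genes in paired copies from an ancient genome duplication, which are usually written with a final a or b, and the copies can differ in expression between lineages.

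The confidence limits of the deposited values imply 21866655 and 28574227 fragments in the zebrafish libraries on their own genome and 21491640 and 18330408 in the medaka libraries. On the other species' genome each library held 0.285% to 0.473% of its fragments. Across genes, which are not independent replicates, the log2 values of the zebrafish libraries had a Pearson r of 0.991 with each other, those of medaka 0.996, and pairs from different species 0.709 to 0.714. The median gene differed by 0.144 on the log2 scale between the zebrafish libraries, by 0.0649 between the medaka libraries and by 0.757 to 0.782 between species. limma called 8215 of the 10296 genes (79.8%) at a Benjamini-Hochberg adjusted p under 0.05. Of these, 4101 (39.8%) were higher in zebrafish and 4114 (40%) in medaka. Without rescaling the split was 3136 higher in zebrafish and 5284 higher in medaka, with the median gene at −0.32, and scaling on ribosomal protein genes gave 3112 and 4564 with the median gene at −0.22. Since most genes passed, size carries more than the call. Each list count below is to be read beside the 39.8% and 40% of all tested genes. Genes past 4-fold on the log2(FPKM + 1) scale numbered 672 toward zebrafish (6.53%) and 577 toward medaka (5.6%). Every difference below is zebrafish minus medaka on that scale, with its limma standard error (SE). In 90.5% of all tested genes the groups did not overlap. Genes named by rule were chosen to have no overlap, so their separation is a condition and not a result. Designs of 2 libraries against 2 allow no exact two-sided permutation p below 0.333 for a single gene.

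**Figure D1:**
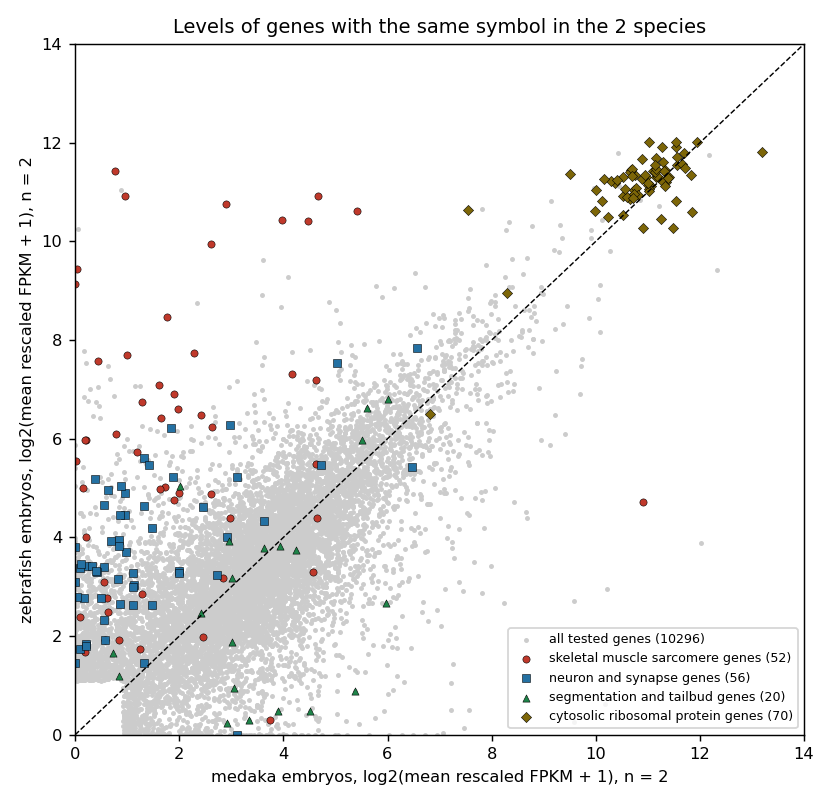
Each grey point is 1 of the 10296 tested genes, placed by the log2 of its mean rescaled FPKM plus 1 in medaka (horizontal axis) and in zebrafish (vertical axis), with the dashed line where both are equal. Sarcomere genes (red circles) lie mostly far above the line, neuron and synapse genes (blue squares) above it at lower levels, tailbud genes (green triangles) on both sides, and ribosomal protein genes (brown diamonds) along it at the top.

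Genes of the contractile apparatus were far higher in zebrafish than in medaka embryos. Of 99 sarcomere genes listed, 60 were joined and 52 tested. Of these 46 were higher in zebrafish, 5 were higher in medaka and 1 did not pass, against 39.8% and 40% of all tested genes. The difference was at least 4-fold toward zebrafish for 38 of them (73.1%, against 6.53% of all). The median over the list was 3.89, against −0.01 for all tested genes. The filter admits a gene through either species, so these counts describe the tested members only.

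mylpfa, the fast muscle myosin regulatory light chain, stood at 3369 and 2155 FPKM in the zebrafish libraries and at 0.706 and 0.696 in the medaka libraries. The groups did not overlap, as the rule for naming requires, and the difference was 10.63 (SE 0.20, adjusted p = 1.2e-07). In zebrafish (danRer10) the gene lies on chromosome 3 from 32681334 to 32686893, a locus of 5560 bases, and the medaka locus spans 1616 bases. Its low medaka values rested on about 11.9 and 9.59 fragments. mylpfa has a copy, mylpfb, and the FPKM of both together were 5141 and 3313 in zebrafish against 43.5 and 43.9 in medaka, a difference of 6.53. mylz3, a fast myosin light chain, had 2438 and 1435 FPKM against 1.09 and 0.795, a difference of 9.92 (SE 0.23). The myosin light chain gene myl13 had 769 and 618 FPKM in zebrafish, while in medaka it was at 0.0602 in replicate 1 and listed at 0 in replicate 2. pvalb4, a parvalbumin that buffers calcium in fast fibres, had 651 and 479 FPKM in zebrafish and was listed at 0 in both medaka libraries. These 4 genes were named by rule, so the separation of their libraries is a condition and not a result. On implied fragments the difference of mylz3 was 6.11.

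Troponin, tropomyosin and creatine kinase genes were also among those with large differences. tnnt3a, fast troponin T, had 1181 and 793 FPKM in zebrafish against 5.31 and 4.9 in medaka (difference 7.31, SE 0.18, adjusted p = 3.7e-07). ckma, muscle creatine kinase, which regenerates ATP, had 2162 and 1308 against 6.35 and 6.61, a 268-fold ratio of means. smyhc1, the slow myosin heavy chain, had 178 and 202 against 0.346 and 0.361. On implied fragments the differences of tnnt3a and smyhc1 were 4.05 and 4.72. tnnc1b, a slow and cardiac type troponin C, had 229 and 182 against 0.957 and 1.03, but with its copy the difference was 3.04 in place of 6.68. tpm3, a tropomyosin, had 379 and 330 against 2.26 and 2.52. neb, the giant thin filament protein nebulin, chosen after its values were seen, had 108 and 61.7 against 2.09 and 2.17. The zebrafish libraries also differed from each other here, replicate 2 being lower than replicate 1 by a median of 0.46 (coded as replicate 2 minus replicate 1, −0.46) over the list. That gap is small beside the median of 3.89 between species.

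Muscle genes against this pattern were few. hspb1, a small heat shock protein that the list includes for its place at the sarcomere, had 26.6 and 24 FPKM in zebrafish and 1862 and 1960 in medaka (difference −6.18, SE 0.11, adjusted p = 1.0e-07). mybpha and mybphb, a pair of myosin-binding protein H genes chosen after their values were seen, went opposite ways. mybpha had 0.193 and 0.263 FPKM in zebrafish against 12.5 and 12.4 in medaka, and mybphb had 258 and 167 against 3.76 and 3.96. tnnc1a, tnni1b and xirp1, named because they complete the 5, were the other members higher in medaka, with differences of −1.26, −0.26 and −0.48.

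Glycolysis genes had no common direction in their calls, but large differences were more often toward zebrafish. Of 45 tested glycolysis genes 18 were higher in zebrafish and 21 in medaka, with a median of −0.04, whose sign turned in 1 of the 19 alternatives. Past 4-fold stood 11 toward zebrafish (24.4%, against 6.53% of all) and 4 of the 45 toward medaka, against 5.6% of all. pfkmb, a muscle phosphofructokinase, had 37.15 and 27.17 FPKM in zebrafish and was listed at 0 in both medaka libraries. pgam2, muscle phosphoglycerate mutase, had 118 and 80.6 against 4.81 and 5.72 (difference 3.98, SE 0.18, adjusted p = 2.7e-06), or 2.4 on implied fragments. eno3, the muscle enolase, chosen after its values were seen, had 261 and 180 against 20.6 and 23.1. Toward medaka, pdha1b, a subunit of pyruvate dehydrogenase, had 0.39 and 0.489 against 18.5 and 18.3, but summed with its copy the difference turned to 0.39.

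**Figure D2:**
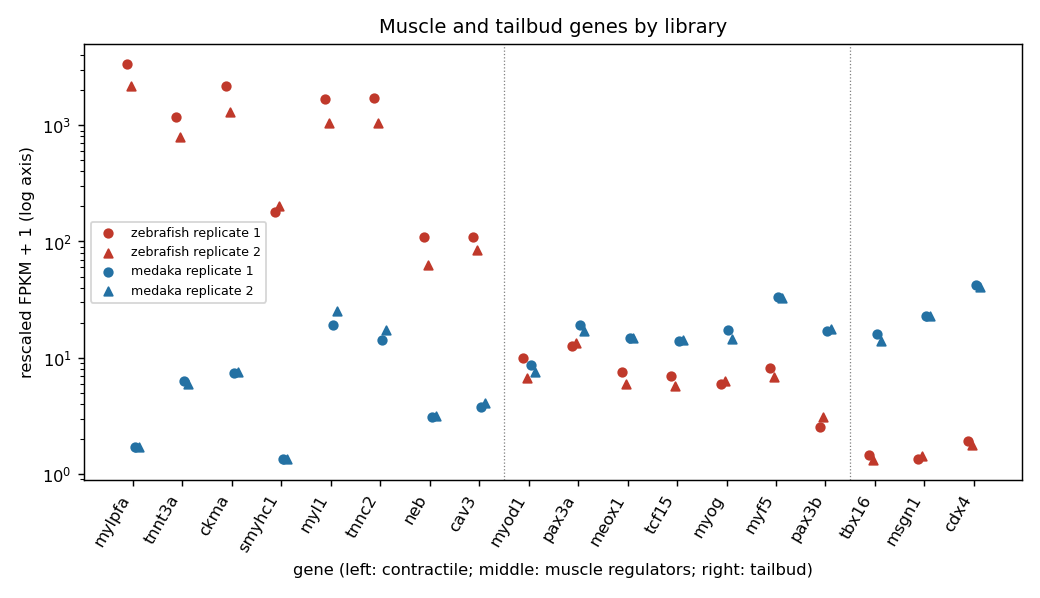
Rescaled FPKM plus 1 on a log axis for 8 contractile genes (left), 7 muscle regulators (middle) and 3 tailbud genes (right), with circles for replicate 1 and triangles for replicate 2 of zebrafish (red) and medaka (blue). The contractile genes are high in zebrafish, with mylpfa at 3369 and 2155 against 0.706 and 0.696, while msgn1 and cdx4 are high in medaka. The genes of the plot were chosen after their values were seen.

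Upstream of the contractile genes the picture was mixed, and several tailbud genes were higher in medaka. Of 20 tested segmentation and tailbud genes 7 were higher in zebrafish and 9 in medaka. Among those past 4-fold, 1 was toward zebrafish and 7 toward medaka, that is 5% against the 6.53% of all genes and 7 of 20 against 5.6% of all. The list's median was −0.03 and its sign turned in 3 alternatives.

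cdx4, a caudal homeobox factor of the tailbud, stood at 0.928 and 0.789 FPKM in zebrafish and at 41.6 and 39.8 in medaka (difference −4.49, SE 0.09, adjusted p = 1.6e-07). msgn1, a bHLH factor of presomitic mesoderm, had 0.351 and 0.428 against 22 and 21.8, a difference of −4.04, or −2.13 on implied fragments. The medaka model of msgn1 spans 438 bases and the zebrafish locus 1971. tbx16, a T-box factor of mesoderm progenitors, had 0.467 and 0.312 against 14.9 and 13.1, a difference of −3.43. In each of these both zebrafish libraries were under 1 FPKM. vox, a ventral homeobox repressor, had 5.27 and 5.53 against 57.7 and 65.2, and it belongs, like tbx16, also to the early embryo list. her7, an oscillating clock gene of the somites, and pcdh8, a protocadherin of the same tissue, were chosen after their values were seen. her7 had 0.265 and 0.0848 FPKM in zebrafish against 6.8 and 6.26, and pcdh8 had 0.244 and 0.21 against 9.75 and 8.56. The Notch ligand dlc went the other way, with 33.8 and 30.3 in zebrafish against 3.29 and 2.74 (difference 3.04, SE 0.11, adjusted p = 1.0e-06). dlc is also used by neural progenitors.

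Myogenic regulators lay between these groups. Of 25 tested, 11 were higher in each species, with a median of 0.03 that lay on the other side of 0 under each of the 3 other scalings. myf5, an early myogenic determination factor, had 7.19 and 5.78 FPKM in zebrafish against 32.3 and 31.7 in medaka (difference −2.15, SE 0.11, adjusted p = 4.2e-06). pax3b, a factor of muscle precursors, had 1.54 and 2.09 against 16.1 and 16.8, and with its copy the difference was −1.30 in place of −2.64. The next genes were chosen after their values were seen. myog, which drives terminal differentiation, had 4.96 and 5.32 against 16.3 and 13.6. meox1 and tcf15, factors of the early somite, had differences of −1.16 and −1.17. myod1 had 8.99 and 5.76 against 7.62 and 6.55, and the groups overlapped (difference 0.03, adjusted p = 0.90). jam2a, an adhesion molecule needed for myoblast fusion in zebrafish, had 15.2 and 12.6 against 1.13 and 1.53 (difference 2.68, or 1.37 on implied fragments). So myf5 and myog were higher where the sarcomere genes were lower.

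Genes of pluripotency and the early embryo were mostly higher in medaka. The median level of the list was 5.9 and 5.77 FPKM in the zebrafish libraries and 10.4 and 10.5 in the medaka libraries. Of 21 tested, 3 were higher in zebrafish (39.8% of all tested genes) and 16 in medaka (40% of all). The median of −0.72 kept its sign in all 19 alternatives and was −0.23 on implied fragments. sall4, a zinc finger factor of stem cells, had 8.69 and 11.8 FPKM against 25.3 and 24.5. nog1, a BMP antagonist, had 3.09 and 2.49 against 10.4 and 9.73. On implied fragments the differences of sall4 and nog1 were −0.24 and −0.30 and did not pass (adjusted p = 0.30 and 0.092). pou5f3, the fish homologue of the pluripotency factor Oct4, chosen after its values were seen, had 0.545 and 0.434 against 3.55 and 3.47 (difference −1.60, adjusted p = 1.0e-05). These differences were smaller than those of cdx4 and msgn1.

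Neuronal genes formed the other large group toward zebrafish. Of 113 neuron and synapse genes listed, 62 were joined and 56 tested. Of these 53 were higher in zebrafish and 2 in medaka, and 35 were at least 4-fold higher in zebrafish (62.5%, against 6.53% of all). The median was 2.65. The median level of the list was 10.5 and 10.6 FPKM in the zebrafish libraries and 0.88 and 0.952 in the medaka libraries.

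elavl4, an RNA-binding protein of postmitotic neurons, had 35.5 and 35.5 FPKM in zebrafish against 0.296 and 0.311 in medaka (difference 4.81, SE 0.09, adjusted p = 1.2e-07). The zebrafish locus spans 111825 bases and the medaka locus 84033. sncb, beta-synuclein of the presynaptic terminal, had 82.5 and 65.3 against 2.58 and 2.58, a difference of 4.38. map2, a microtubule protein of dendrites, had 28 and 32.2 against 0.47 and 0.64, a difference of 4.32. snap25a, a SNARE protein of vesicle release, had 51.3 and 44.7 against 1.24 and 1.75, and with its copy the difference was 4.53. In all 4 genes both medaka libraries were under 3 FPKM. Of genes for transmitter handling, 3 were chosen after their values were seen. The differences were 3.10 for slc32a1, which loads GABA and glycine into vesicles, 1.77 for slc17a6b, a vesicular glutamate transporter, and 3.10 for ache, acetylcholinesterase. The 2 members higher in medaka, named for that reason, were gng2, a G protein subunit, at −1.04, and gap43, a growth cone protein. gap43 was listed at 0 in both zebrafish libraries and had 7.43 and 7.79 FPKM in medaka.

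Neural progenitor genes differed less. Of 39 tested, 33 were higher in zebrafish and 2 in medaka, 11 of them past 4-fold toward zebrafish (28.2%), with a median of 1.13. slc1a2b, a glial glutamate transporter, had 44.6 and 45.2 FPKM against 2.67 and 2.36 (difference 3.71, SE 0.09, adjusted p = 2.9e-07), or 0.81 on implied fragments. neurod4, a proneural bHLH factor also used in retinal neurons, had 80 and 65.7 against 8.61 and 8.56, a 8.48-fold ratio of means. fabp7a, a lipid carrier of radial glia, had 487 and 386 against 26.5 and 30.2, but with its copy the difference was 0.47 in place of 3.89, and on implied fragments 2.06. Mature neuron genes thus had a larger median than progenitor genes, although the difference between the lists was not tested.

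By brain region the forebrain list had 24 of 29 tested genes higher in zebrafish and 2 in medaka, with a median of 1.28. The midbrain and hindbrain list had 19 of 35 and 10, with a median of 0.34. dlx5a, a homeobox factor of forebrain interneurons and branchial crest, had 38 and 32.6 FPKM against 6.4 and 7.11 (difference 2.23, SE 0.10, adjusted p = 3.1e-06). gsx1, a homeobox factor of the ventral forebrain, had 20.3 and 18 against 3.78 and 4.04. atoh1a, the proneural factor of the rhombic lip, had 13.1 and 11 against 1.44 and 1.74, and tal2, a bHLH factor of midbrain neurons, had 12.7 and 11.1 against 1.3 and 1.71. Both medians kept their sign under every scaling.

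Genes of the eye were on balance higher in zebrafish. Of 27 tested retinal neuron and photoreceptor genes 22 were higher in zebrafish and 4 in medaka, with a median of 1.42 that ranged from 0.64 to 2.73 over the alternatives. Of 37 eye field and retinal progenitor genes 19 were higher in zebrafish and 12 in medaka, with a median of 0.41 that ranged from 0.06 to 0.64. The difference between the lists was not tested. atoh7, the factor that starts retinal ganglion cells, had 15.2 and 9.35 FPKM in zebrafish against 0.401 and 0.305 in medaka (difference 3.26, SE 0.20, adjusted p = 1.1e-05). bhlhe22, a factor of amacrine and bipolar cells, had 12 and 9.17 against 0.986 and 0.919 (difference 2.56, or 4.48 on implied fragments). lhx9, a LIM homeobox factor, had 20.5 and 18.6 against 1.08 and 1.16. In contrast lhx2a, also a LIM factor, was higher in medaka, at 0.906 and 0.666 against 11.1 and 11.8, yet with its copy the difference was −0.27 and no longer passed (adjusted p = 0.11).

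Lens genes were higher in zebrafish in 17 of 23 tested and in medaka in 5, against 39.8% and 40% of all tested genes. Past 4-fold stood 9 toward zebrafish and 0 toward medaka, against 6.53% and 5.6% of all, and the median was 1.11. crybb1, a beta crystallin of lens fibres, had 475 and 298 FPKM against 27.8 and 34.6 (difference 3.56, SE 0.22, adjusted p = 1.1e-05), or 0.68 on implied fragments. mipa, the lens water channel, had 43.2 and 35.9 against 2.61 and 3.69 (difference 3.30, or 4.98 on implied fragments). lim2.3, a lens membrane protein, had 49.1 and 33.8 against 2.74 and 3.03. Zebrafish replicate 2 was below replicate 1 in all 3, and over the list by a median of −0.41.

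**Figure D3:**
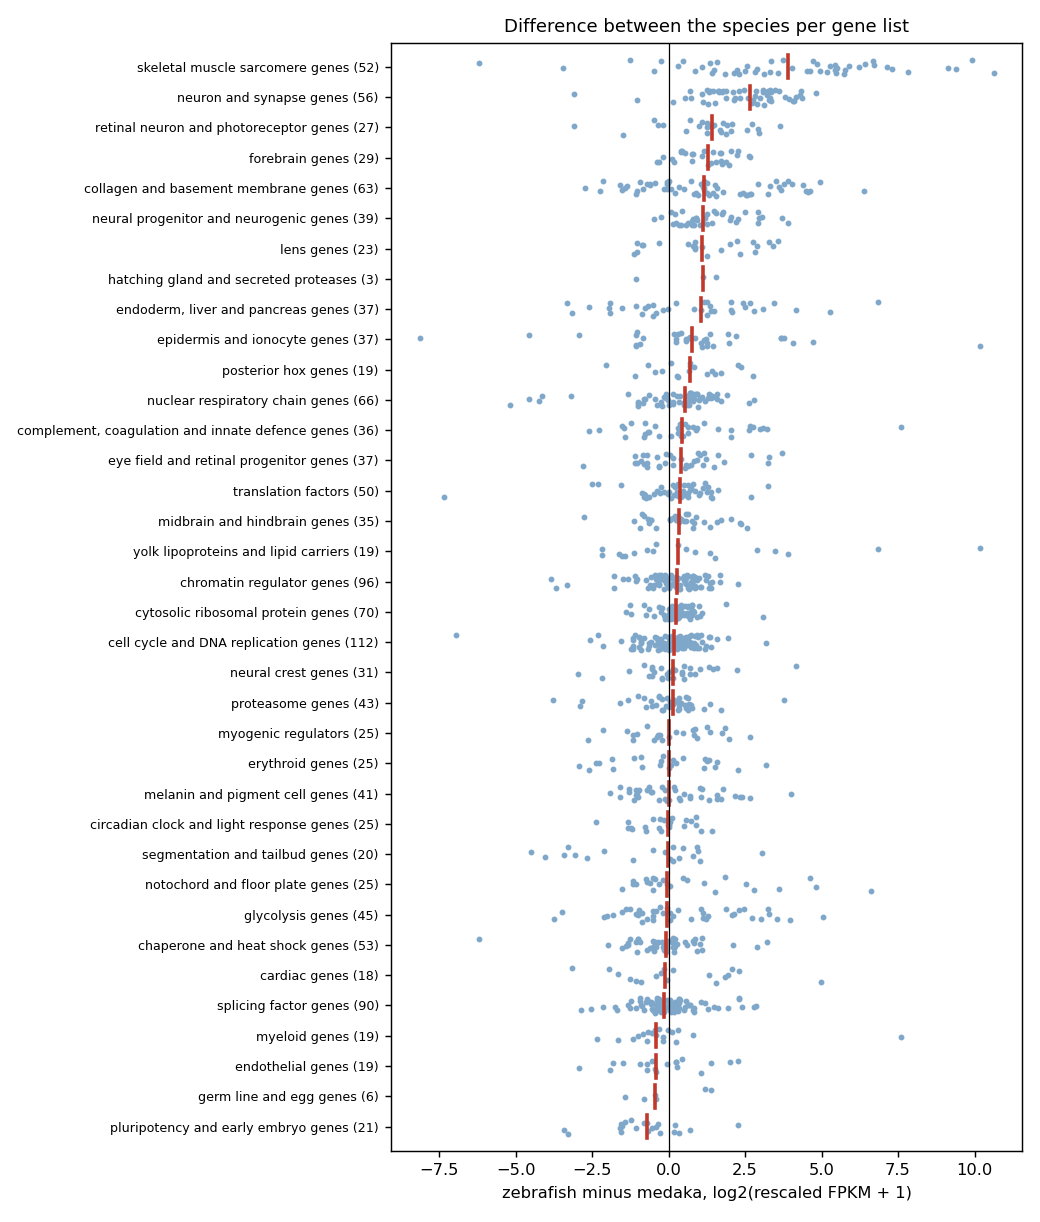
Each point is a tested gene of the list named on the left, with the number of tested members in brackets, placed by its difference between zebrafish and medaka on the log2(rescaled FPKM + 1) scale, and each red bar is the list's median. Lists are ordered by their median, from 3.89 for sarcomere genes down to −0.72 for pluripotency and early embryo genes.

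Extracellular matrix genes were on balance higher in zebrafish. Of 63 tested collagen and basement membrane genes 40 were higher in zebrafish and 15 in medaka, against 39.8% and 40% of all tested genes. Past 4-fold stood 21 and 3, against 6.53% and 5.6% of all. The median was 1.15, or 0.26 on implied fragments. postnb, a periostin, which is a matrix protein of connective tissue, had 443 and 412 FPKM against 4.07 and 4.12 (difference 6.39, SE 0.08, adjusted p = 4.9e-08). col7a1, the anchoring fibril collagen under the epidermis, had 36 and 35 against 0.527 and 0.563. col11a2, a cartilage collagen, had 48.8 and 64.3 against 1.11 and 1.54. and2, which codes for an actinodin of the fin fold's fibres, had 192 and 179 against 0.177 and 0.133, and it was among the 15 genes with the largest difference toward zebrafish. On implied fragments postnb and col7a1 had differences of 4.06 and 1.33.

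The notochord list was divided, with 11 of 25 tested genes higher in each species. Past 4-fold stood 6 toward zebrafish (24%, against 6.53% of all) and 0 toward medaka, against 5.6% of all. Of these 6, col9a1b had a difference of 3.60, but on implied fragments it was −0.17 and did not pass (adjusted p = 0.40). ngs, a notochord protein called granular surface, had 134 and 130 FPKM against 0.256 and 0.455 (difference 6.62, SE 0.10, adjusted p = 6.3e-08). epyc, a small proteoglycan, had 82.7 and 85.8 against 2.11 and 1.96. noto, a homeobox factor of the early notochord, chosen after its values were seen, had 1.2 and 1.06 against 5.73 and 4.46 and was thus higher in medaka. The list labelled posterior hox genes is wider than its label, as it also holds hoxb4a, hoxb5b and hoxd4a. It had 12 of 19 tested higher in zebrafish and 4 in medaka, with a median of 0.68. The difference of hoxa9b was 1.71, but with its copy it was −0.04 and did not pass (adjusted p = 0.81). hoxb4a had 14.2 and 13.1 against 4.62 and 4.27, and hoxd4a had 12.3 and 11.6 against 25.7 and 27.9, but on implied fragments hoxd4a had a difference of −0.02 and did not pass (adjusted p = 0.84).

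Skin genes held abundant members on each side. Of 37 tested epidermis and ionocyte genes 25 were higher in zebrafish and 9 in medaka, with a median of 0.77, or 0.10 on implied fragments. icn, ictacalcin, an S100 calcium-binding protein of the epidermis, had 2306 and 1897 FPKM in zebrafish against 1.21 and 0.475 in medaka (difference 10.18, SE 0.20, adjusted p = 1.4e-07). anxa1c, an annexin of the skin surface, had 425 and 390 against 15.4 and 13.6. The keratin gene krt15 stood at 13.6 and 14.1 FPKM in zebrafish and at 4238 and 4050 in medaka, a 299-fold ratio of means (difference −8.12, SE 0.10, adjusted p = 4.5e-08). krt94, another keratin, had 9.42 and 10 against 256 and 248. Not every skin gene could be tested. krt4 and cyt1, chosen after their values were seen, were left out for lack of a valid Cufflinks status. Before rescaling, krt4 had 6730 FPKM in zebrafish replicate 1 and 0 in replicate 2, against 373 and 329 in medaka, so no direction is given for it. cyt1 had 0 in both zebrafish libraries against 112 and 105. The implied fragments of krt15 were 888 and 1475 in zebrafish and 2397 and 2492 in medaka, far less apart than its FPKM. The medaka numbers were few for such FPKM, since the kinase gene nme2a had 26176 and 22493 fragments there at 756 and 771 FPKM. They may therefore be too low, and neither scale is taken as the true one for krt15. On implied fragments the differences were −1.44 for krt15, −1.36 for krt94 and 1.54 for anxa1c. Keratins are a family of related genes, paired here by symbol only, so the comparison of a single keratin symbol is uncertain.

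Gut, liver and yolk genes also lay far apart in single members. Of 37 tested endoderm, liver and pancreas genes 20 were higher in zebrafish and 14 in medaka, and the median of 1.07 turned to −0.06 in 1 alternative. Yolk lipoproteins and lipid carriers had 9 of 19 in each direction. fabp1b.1, a fatty acid carrier of liver, gut and yolk syncytium, had 1272 and 1168 FPKM in zebrafish, 0.0901 in medaka replicate 1 and was listed at 0 in medaka replicate 2. fabp2, the intestinal fatty acid carrier, had 176 and 178 against 0.483 and 0.629, but with its copy the difference was 2.53 in place of 6.84. cp, the plasma copper protein ceruloplasmin, had 46.8 and 46.1 against 1.6 and 1.7 (difference 4.16, SE 0.08, adjusted p = 1.5e-07), or 1.92 on implied fragments. serpina1l, a serine protease inhibitor of plasma, was the reverse, with 66.5 and 68 against 658 and 691. The plasma proteins fgg, a fibrinogen chain, and c8a, a complement component, were higher in zebrafish by 3.09 (1.32 on implied fragments) and 3.22, and of the whole list of 36 complement, coagulation and innate defence genes 20 were higher in zebrafish and 11 in medaka.

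Blood and vessel genes had no common direction. Of 25 tested erythroid genes 9 were higher in zebrafish and 10 in medaka, with a median of 0.02 that changed sign under 2 of the 3 other scalings. slc4a1a, the anion exchanger of the red cell membrane, had 111 and 111 FPKM in zebrafish against 10.8 and 12.1 in medaka (difference 3.18, SE 0.09, adjusted p = 4.7e-07), but on implied fragments the difference was 0.34 and did not pass (adjusted p = 0.082). alas2, the first enzyme of haem synthesis in red cells, chosen after its values were seen, had 84.7 and 83 against 34.8 and 37.1. hmbsa, hydroxymethylbilane synthase of the same pathway, had 17.6 and 17.5 against 94.5 and 95, although with its copy the difference was −1.14 in place of −2.37. urod, cpox and fech, also of this pathway and chosen after their values were seen, had differences of −1.80, −1.87 and −2.28. slc25a37, the mitochondrial iron carrier of red cells, had 0.962 and 1.61 against 15.4 and 17, and lmo2, an early factor of blood and vessel cells, had 8.48 and 6.58 against 49.1 and 52.9 (difference −2.62, or −1.32 on implied fragments).

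Of 19 tested endothelial genes 6 were higher in zebrafish and 10 in medaka, and of 19 myeloid genes 2 and 11. Among all tested genes the shares were 39.8% and 40%. Each list had a median of −0.40 that kept its sign in all alternatives. egfl7, a secreted factor of forming vessels, had 6.43 and 4.96 FPKM against 50 and 48.4 (difference −2.91, SE 0.12, adjusted p = 1.8e-06). itgb2, the leukocyte integrin beta chain, had 1.49 and 1.55 against 12.8 and 11. The 2 myeloid genes higher in zebrafish included lyz, lysozyme of granulocytes and macrophages, with 239 and 199 FPKM in zebrafish, 0.258 in medaka replicate 2 and a listing at 0 in replicate 1. Myeloid genes other than lyz were thus mostly higher in medaka at low levels.

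In its calls and median the cardiac list did not follow the skeletal muscle list. Of 18 tested cardiac genes 7 were higher in zebrafish and 8 in medaka. The median was −0.11, and its sign turned in 2 alternatives. Past 4-fold stood 3 toward zebrafish (16.7%, against 6.53% of all) and 1 of the 18 toward medaka, against 5.6% of all. cmlc1, a cardiac myosin light chain, had 40.3 and 33.6 FPKM in zebrafish against 143 and 145 in medaka (difference −1.94, SE 0.11, adjusted p = 6.7e-06). myl7, the other cardiac light chain, chosen after its values were seen, had 35.6 and 33.3 against 33.5 and 38.3, and the groups overlapped (adjusted p = 0.62). gata4, a factor of heart and gut precursors, had 1.19 and 3.18 against 27.19 and 25.24. Against them stood mybpc3, cardiac myosin-binding protein C, with 63.7 and 61 in zebrafish and 0.952 and 1.05 in medaka, and nppa, atrial natriuretic peptide, with 14.8 and 12.4 against 1.99 and 1.87. On implied fragments their differences were 3.27 and 3.99 in place of 4.98 and 2.32.

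Pigment and neural crest genes had medians near 0, at 0.01 over 41 and 0.14 over 31 tested genes, and both turned sign under each of the 3 other scalings. gch2, which makes the pterin cofactor of yellow and black pigment cells, had 147 and 111 FPKM against 23.9 and 25.7 (difference 2.32, SE 0.14, adjusted p = 9.1e-06). rab32a, a melanosome trafficking gene, had 5.95 and 4.93 against 24.1 and 22.5. Of the 31 crest genes 13 were higher in zebrafish and 9 in medaka, against 39.8% and 40% of all tested genes. sox9b of this list had 28.6 and 27.7 FPKM in zebrafish against 0.752 and 0.488 in medaka. Its difference was 4.17, or 1.66 with its copy. msx1a and snai1b, factors of the crest and neural border, were higher in medaka by −2.96 and −2.17, and with their copies by −0.94 and −1.70.

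Lists of the machinery that every cell uses had medians from −0.14 to 0.54, nearer 0 than those of the sarcomere and neuron lists. Some tissue lists, such as the erythroid and pigment lists, had medians nearer 0 still. Ribosomal protein genes had 23 of 70 tested higher in zebrafish, 8 in medaka and 39 that did not pass, with a median of 0.25 that turned to −0.11 without rescaling and to −3.46 on implied fragments. Zebrafish replicate 2 was below replicate 1 by a median of −0.31 over them. rps27.1 had 1801 and 1385 FPKM in zebrafish against 181 and 191, and rps29 had 4035 and 3161 against 8421 and 10356. The implied fragments of rps29 ran the other way, at 27328 and 33351 in zebrafish against 5251 and 5436 in medaka. The direction of rps29 thus depends on the scale used, and the cause was not tested. Fragments per FPKM were uneven within each species. In medaka rpl38 had 19910 and 18211 implied fragments at 3534 and 3828 FPKM. In zebrafish rps10 had 3460 and 3277 at 3007 and 2292 FPKM. Some of the implied fragments may be too low, which bears on the −3.46 of the list as well. For cell cycle genes 54 of 112 tested were higher in zebrafish and 32 in medaka (median 0.17), for chromatin regulators 48 of 96 and 23 (0.27), for splicing factors 28 of 90 and 34 (−0.14), for proteasome genes 17 of 43 and 12 (0.14) and for chaperones 13 of 53 and 22 (−0.09). Of these 5 medians, those of cell cycle, chromatin and proteasome genes turned sign under at least 1 other scaling and also on implied fragments (−0.61, −0.45 and −0.63). Translation factors had 29 of 50 tested higher in zebrafish and 14 in medaka, with a median of 0.37 that turned to −0.85 on implied fragments, and nuclear respiratory chain genes 39 of 66 and 15, with 0.54.

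Single members differed more than their lists. cdk4, a kinase that drives entry into the cell cycle, had 13.4 and 11.7 FPKM in zebrafish against 80.7 and 78.1 in medaka (difference −2.57, SE 0.09, adjusted p = 1.2e-06). orc2, of the origin recognition complex, had 85.8 and 72.2 against 7.65 and 7.99, but its implied fragments were 486 and 620 in zebrafish and 719 and 631 in medaka, and on that scale the sign turned (difference −0.64, adjusted p = 0.0016). psme1 and psme2, the subunits of the interferon-induced proteasome cap, were both higher in medaka, at 0.686 and 0.662 against 20.7 and 23.5, and at 0.772 and 0.759 against 11.2 and 12.1. cox6a2, the heart and muscle form of a cytochrome oxidase subunit in mammals, had 0.636 and 0.897 against 63.7 and 63.3 (difference −5.19, SE 0.10, adjusted p = 1.4e-07). Its direction was opposite to that of the sarcomere genes.

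The 15 genes with the largest differences toward zebrafish were led by mylpfa, fabp1b.1 and icn, and 9 of them were muscle genes. Those toward medaka were of mixed kinds. zgc:171226, listed here under a clone-type symbol, had 0.656 and 0.41 FPKM in zebrafish against 1193 and 1124 in medaka, a difference of −9.57. In both genomes it lies between the keratin genes krt15 and krt94, on zebrafish chromosome 11 and medaka chromosome 1. What it codes for was not examined, and like the keratins it was paired by symbol only. nme2a, a nucleoside diphosphate kinase, had 0.18 and 0.219 against 756 and 771 (difference −9.32, SE 0.08, adjusted p = 3.1e-08). aldh16a1, an aldehyde dehydrogenase family member, had 3.12 and 2.76 against 882 and 900, and galcb, a galactosylceramidase, had 5.69 and 5.37 against 774 and 757. On implied fragments these differences were −3.66 and −2.96 in place of −7.83 and −6.88. dut, the enzyme that removes dUTP, was listed at 0 in both zebrafish libraries and had 121 and 124 in medaka. The zebrafish locus under that symbol spans 101 bases (chromosome 18, from 5616256 to 5616356, danRer10) and the medaka locus 2236, so the symbol stands for unlike gene models.

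The tested genes include many pairs that may be copies. Of 755 pairs of symbols that differ only by a final a or b and were both tested, 298 (39.5%) had both copies called in the same direction and 224 (29.7%) in opposite directions. Both copies were past 4-fold in opposite directions in 9 pairs, and in the same direction in 23. The pairing is by letters only, so the 755 also hold many pairs of distinct genes or subunits, such as hexa and hexb, etfa and etfb, and cyba and cybb. Of the 298 pairs called in the same direction, 193 were both higher in zebrafish and 105 both higher in medaka. Among all tested genes 39.8% were called higher in zebrafish and 40% in medaka. Whether the members of a pair go together more often than unrelated genes was not tested. The 9 pairs past 4-fold in opposite directions are named because they met this condition, which was set after the values were seen.

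psme4b, a proteasome activator, had 12.3 and 13.7 FPKM in zebrafish against 0.0306 and 0.0322 in medaka, and its copy psme4a had 0.551 and 0.65 against 11.2 and 10.8. Together they had 12.5 and 13.9 in zebrafish against 11.5 and 11.1, a difference of 0.21 that did not pass (adjusted p = 0.071). mat2aa and mat2ab, which make S-adenosylmethionine, had 190 and 182 against 34.3 and 30.9, and 10.6 and 10 against 208 and 197. tspan3a and tspan3b, tetraspanins, had differences of 3.14 and −3.08. gltpa, a glycolipid transfer protein, had 3.47 and 3.82 FPKM in zebrafish and was listed at 0 in both medaka libraries, while gltpb had a difference of −2.78. The glucagon gene gcga had a difference of −2.60, and gcgb had 10.1 and 9.48 FPKM in zebrafish and was listed at 0 in medaka. The retinoid carriers rbp7a and rbp7b had differences of −4.26 and 2.79, the formin genes fmnl2a and fmnl2b −2.11 and 2.79, and hexa and hexb 2.63 and −3.06. The last of the 9 is the mybpha and mybphb pair of muscle.

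A single symbol could also differ far more than the sum of its copies. eif3bb, a translation initiation subunit, had 0.103 and 0.0882 FPKM in zebrafish against 179 and 171 in medaka, but all eif3b symbols together had 246 and 222 against 184 and 176. cdh2, N-cadherin, which holds neural and mesodermal cells together, had 59.6 and 63.5 against 3.7 and 3.89 under that symbol. Over all cdh2 symbols it had 58.1 and 61.8 against 55.8 and 55, and the difference of 0.11 did not pass (adjusted p = 0.25). vtnb, a vitronectin, and alcama, a cell adhesion molecule of axons, went from 5.27 to 0.54 and from 3.65 to 0.59 in the same way. The sarcomere and neuron medians changed little, to 3.77 and 2.48 with copies summed.

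**Figure D4:**
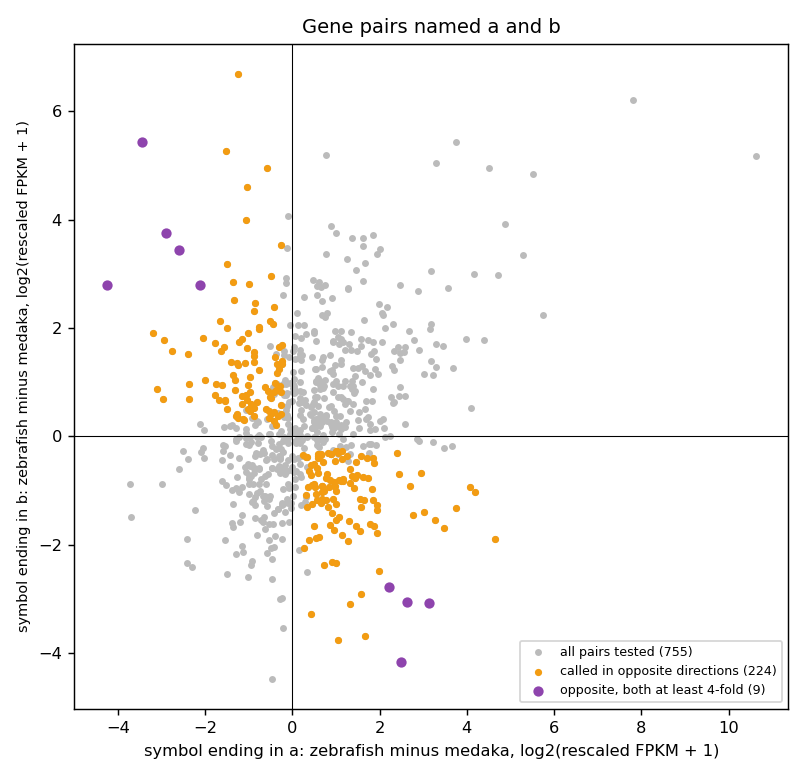
Each point is 1 of 755 gene pairs whose symbols end in a and b, placed by the difference between zebrafish and medaka of the a copy (horizontal axis) and of the b copy (vertical axis), both on the log2(rescaled FPKM + 1) scale. Orange points are the pairs called in opposite directions (224) and violet points the 9 in which both copies also differed at least 4-fold.

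The chimeras allow the same genes to be read on the zebrafish genome (donor) and on the medaka genome (host) within a library. Donor and host values were rescaled over the same genes. There the sarcomere genes had donor minus host medians of −1.11, −1.07 and −1.20 in the 3 libraries, against 3.89 in the control embryos. Neuron and synapse genes had 1.42, 1.48 and 1.48, on the same side as the controls. Retinal neuron genes had between 2.31 and 2.5, and all tested genes −0.24, −0.25 and −0.24. Lens genes, higher in zebrafish embryos, had −3.05, −2.64 and −3.13. Sarcomere genes stood low in control medaka, at a list median of 2.09 and 2.33 FPKM. If host levels were alike, the added 1 limits how far below 0 their donor minus host medians can fall. No test was made of the donor and host medians, and which tissues the donor cells formed is not recorded in these tables. The donor part was shallow, at 941708, 764000 and 847288 implied fragments, against 30983952, 27167734 and 27824199 for the host. Medaka control libraries placed 0.473% and 0.423% of their fragments on the zebrafish genome, so donor values may include host fragments. In number these were 102064 and 77794, from libraries less deep than the host part of the chimeras. Such numbers are not small beside the donor fragments, and nothing was subtracted for them.

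**Figure D5:**
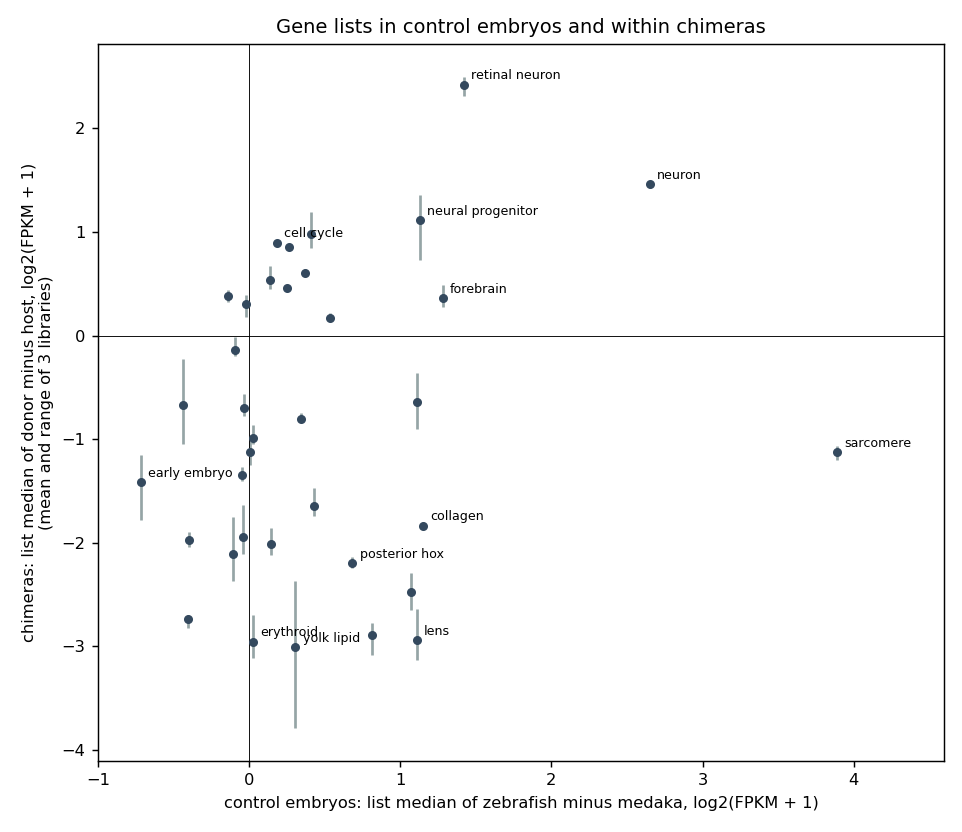
Each point is a gene list, placed by its median difference between control zebrafish and control medaka embryos (horizontal axis) and by its median donor minus host difference in the chimeras (vertical axis, mean of 3 libraries with their range as bars), both on a log2(FPKM + 1) scale. Neuron, neural progenitor, forebrain and retinal neuron lists are above 0 on both axes, whereas sarcomere, lens and collagen lists are above 0 in the controls and below 0 in the chimeras.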

How the data were processed

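Per the labels' protocols, Trizol was used for extraction of whole embryos, and poly(A) RNA was isolated with NEBNext reagents. The deposited FPKM values were made with HISAT2 and Cufflinks 2.2.1, per the submitters' processing notes, which name danRer10 for zebrafish. For HISAT2 no version, and for medaka no build, is given in the sources used here. FPKM is normalized by the authors to the fragments on each genome, and Cufflinks' confidence limits were used to work out implied fragments.

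Of 12188 shared symbols, 304 with several IDs in a genome were left out, as were 21 joined genes without a valid Cufflinks status and 1567 under the minimum of 1 FPKM. Values were rescaled by the median ratio over joined genes (factors 0.847 and 0.92 for zebrafish, 1.15 and 1.12 for medaka), taken as log2(FPKM + 1), and tested with limma 3.58.1 in R 4.3.3 (eBayes with its trend and robust settings, Benjamini-Hochberg threshold 0.05), after a check on simulated data. Lists (36) are described by counts and medians, with no set test. Members, lists and tests were chosen with earlier results of these data known. Named genes had an adjusted p under 0.05, at least 10 FPKM in the higher species and no overlap: the 15 largest each way and up to 4 per list. Others are marked as chosen after their values were seen. Of the tested zebrafish IDs, 10105 were found in the gene name table, 7455 of them with the same symbol. Some genes are not reported here. Python 3.11.15 with pandas 2.3.3 and matplotlib 3.10.9 was used for tables and figures.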

Additional observations from a re-analysis of the deposited data

How the results depend on the processing

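No paired analysis was possible because replicate numbers were given in accession order and no label ties a zebrafish library to a medaka library. Among 19 alternatives (other scalings, pseudocounts, filters, gene matching, gene model length and fits, and each library left out), 116 of the 149 named genes kept their call and direction in every alternative that tested them. Leaving out 1 library, with the lone library assumed to vary like the others, gave 3525 to 4366 genes higher in zebrafish and 3503 to 4357 higher in medaka. Restricting to 6945 genes without a paralogue symbol gave 2726 higher in zebrafish, with fewer genes tested. A paralogue symbol is another symbol of either annotation that differs by a final a or b, or an entry marked 1 of many. Past 4-fold, the pseudocount of 0.1 gave 1242 genes toward zebrafish and 906 toward medaka, and that of 5 gave 240 and 204. The medians for sarcomere and neuron genes ranged from 2.91 to 4.85 and from 1.38 to 3.64 over all alternatives.

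Summing symbols taken as copies by their names was an alternative added after the data were seen. It goes by letters, so it may also join distinct genes or subunits, as it does cyba and cybb. It turned 10 named genes: arpc1b 0.247, cox8b 1.23, eif3bb 0.378, eif4ea −0.263, hoxa9b −0.0377, pdha1b 0.388, pmelb −0.654, psme4a 0.207, s100a10a 1.40 and vgll4b −0.0165. Of these, arpc1b, hoxa9b, psme4a and vgll4b no longer passed, and the calls of cdh2, lhx2a, psme4b and vgll4a were lost. Implied fragments without length, also added after the data were seen, turned 9: ccnb1 −1.42, cd63 −0.355, clockb −0.519, col9a1b −0.168, ndufa3 1.95, orc2 −0.639, rps10 −3.16, rps29 2.14 and setd7 0.537, of which cd63 and col9a1b did not pass. They gave 1438 genes past 4-fold toward zebrafish and 1077 toward medaka. cdk6 lost its call when either medaka library was left out. The cause was not tested. FPKM carries no replicate for gene models, so differences in annotation limit every single gene. Some values under 1 FPKM rest on few fragments, such as those of mylpfa in medaka. Others do not, such as those of col7a1 in medaka, with 261 and 232 implied fragments.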

Other observations

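Genes listed at 0 in a species were not evenly divided. At 0 in both zebrafish libraries and at least 10 FPKM in medaka stood 23 genes, and 7 were in the reverse state. Of all tested genes, 59 were at 0 in both zebrafish libraries and 36 in both medaka libraries. The 23 include dut, kdm5a, a histone demethylase with 12 and 11.8 FPKM in medaka, and pdcl3, a phosducin-like chaperone with 74.7 and 79 FPKM. In zebrafish kdm5a and pdcl3 lie on the sequences KN150487.1 and KN150015.1, not on a numbered chromosome. Whether this bears on their values of 0 was not tested. Under 0.5 FPKM in medaka and at least 10 in zebrafish stood 66 genes, of which 39 have a paralogue symbol. The reverse held for 68 genes, of which 18 have one, against 32.5% of all tested genes. Circadian genes had 7 of 25 tested higher in zebrafish and 10 in medaka, with a median of −0.02. Among them tefa, a clock-output factor, had 58.6 and 56.5 FPKM in zebrafish against 96.4 and 101 in medaka, and clockb had 9.35 and 11.5 against 5.06 and 5.1. On implied fragments tefa did not pass (−0.15) and clockb turned to −0.52. Of 6 tested germ line and egg genes 2 were higher in zebrafish and 4 in medaka, and of 3 hatching gland genes 2 and 1. ucp2, a mitochondrial uncoupling protein, had 127 and 130 FPKM in zebrafish against 0.22 and 0.233 in medaka.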
